A study of Homo sapiens with 6 samples.

Results

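Cohesin is a ring-shaped protein complex that holds sister chromatids together and folds interphase chromatin into loops. The ring is closed by SMC1A, SMC3 and the kleisin RAD21, and carries either STAG1 or STAG2. NIPBL loads it onto DNA, PDS5A and PDS5B regulate its release, and the acetyltransferases ESCO1 and ESCO2 acetylate SMC3, a mark that the deacetylase HDAC8 removes so that cohesin can be used again. Germline variants in several of these genes, HDAC8 among them, cause Cornelia de Lange syndrome, and STAG2 is often inactivated in tumours. Because HDAC8 acts on SMC3 protein, the RNA levels given here do not measure acetylation of SMC3.

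The cohesin genes described here are these 10 genes, chosen by name as the core ring, its loader, its PDS5 regulators and the SMC3 acetyltransferases, out of 60504 genes in the deposited count table. All 10 were among the 16195 genes that passed the filter on low counts. They were measured by RNA-seq in SK-MEL-28, an established human melanoma cell line, in 3 libraries labelled EV, from cells given an empty vector plasmid, and 3 libraries labelled HDAC8, from cells given a plasmid that expresses HDAC8. Both kinds of cells were stably transfected and kept under hygromycin selection, and all 6 libraries came from the same line. The labels number the biological replicates 1 to 3 in each group without saying whether they were separate transfections or cultures, so the p-values measure the spread between these libraries, which may be partly technical.

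The introduced gene came first as a check of the labels. HDAC8 (ENSG00000147099, chromosome X) stood at 16.6, 15.2 and 11.8 CPM (counts scaled to library size, with TMM factors) in EV replicates 1 to 3, and at 14.2, 15.2 and 13.5 CPM in the HDAC8 replicates. The ranges overlapped, and the log2 fold change of HDAC8 over EV was -0.024 (95% interval -0.31 to 0.26, adjusted p = 0.924, edgeR's quasi-likelihood test). HDAC8 RNA therefore did not tell the groups apart, the sources do not say whether RNA from the plasmid was counted on this gene, and every direction below is that of the libraries labelled HDAC8 over the libraries labelled EV. Library totals lay between 20850021 and 29822903 counts, so that 3 counts, taken as the smallest detectable level, were 0.102 to 0.148 CPM, for counting error only. The melanocyte lineage genes PMEL, MLANA, TYR, DCT, SOX10 and MITF were all expressed, with summed levels of 6376 to 6761 CPM in EV and 7411 to 7936 CPM in HDAC8. PMEL, TYR and SOX10 were called higher and DCT and MITF lower in HDAC8. Of 8 markers of other cell types, the fibroblast gene LUM alone passed the filter, at 36.7 ± 1.70 CPM (SD, n = 3) in EV and 49.7 ± 2.27 CPM (SD, n = 3) in HDAC8, while KRT5, KRT14, EPCAM, PTPRC, PECAM1, CDH5 and DCN were at or near 0.

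Among the 10 cohesin genes, NIPBL and SMC1A were higher in the libraries labelled HDAC8, and PDS5B, ESCO2 and STAG1 were lower, while SMC3, RAD21, STAG2, PDS5A and ESCO1 did not pass an adjusted p of 0.05. The 5 differences were small, from 0.760 to 1.32 times the EV level. Of all genes tested, 22.7% passed the same threshold, 11.1% as higher and 11.7% as lower, against 2 higher and 3 lower of 10 here. The groups did not overlap for the same 5 genes, against 38.0% of all genes tested. No cohesin gene also reached an absolute log2 fold change of 0.58 in edgeR, which 7.52% of all genes tested did. That count was 0 with an unadjusted p under 0.05 in place of the adjusted one, which 6 of the 10 had, and 0 with DESeq2. The median log2 fold change was 0.035 over the cohesin genes and 0.0091 over all genes tested.

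**Figure D1:**
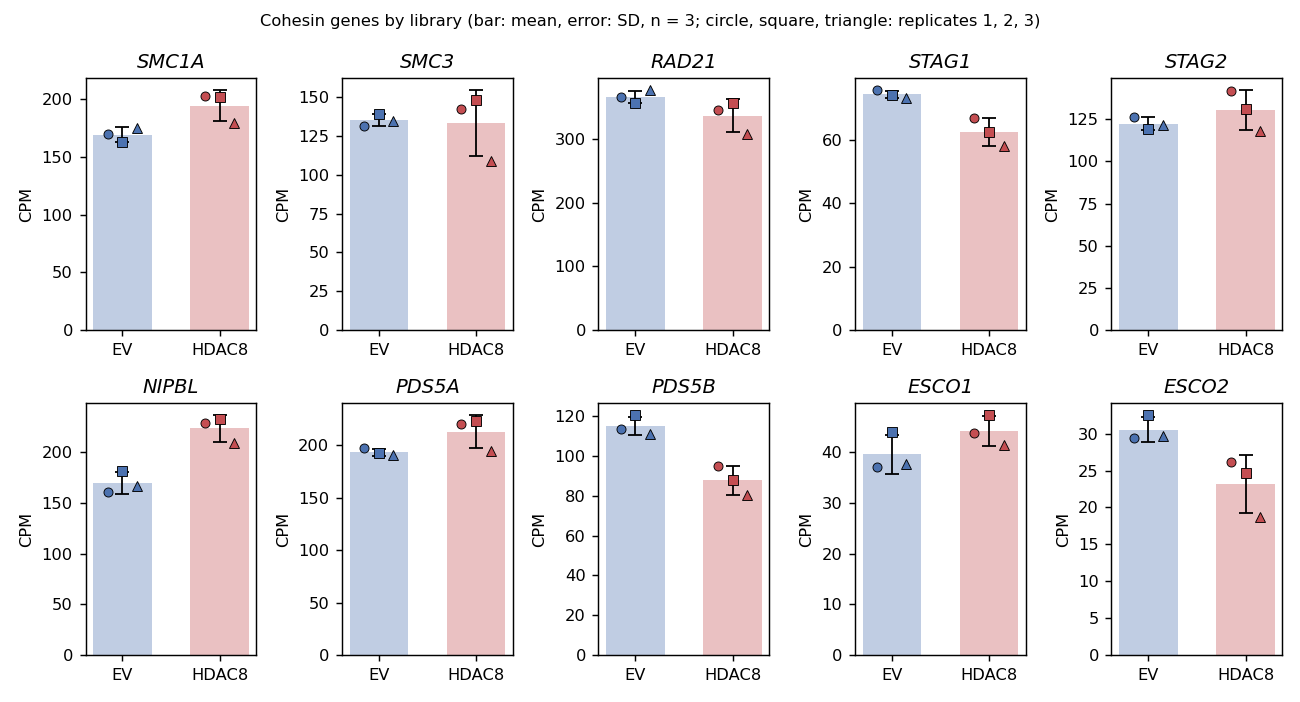
Level of each cohesin gene in CPM (y axis, a separate scale in each panel, starting at 0) in the 3 EV and 3 HDAC8 libraries. Circles, squares and triangles are replicates 1, 2 and 3, bars are group means and error bars are SD (n = 3). NIPBL and SMC1A lie higher without overlap in HDAC8, and PDS5B, ESCO2 and STAG1 lower. HDAC8 replicate 3 is the lowest HDAC8 library in all 10 panels.

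Start-site sequences of the 4 called genes that had an entry are shown so that the genes that were higher can be set beside those that were lower. They are the 250 bases before the annotated start on the gene's own strand (RefSeq, GRCh38.p14), with capitals marking matches on either strand to TTTGGCGC or TTTCCCGC (E2F-like), TTTGAA (CHR-like), ATTGG (the complement of the CCAAT box) and GGGCGG (the GC box). The first 2 genes were higher and the last 2 lower in the libraries labelled HDAC8. The windows are chr5:36876519-36876768 (+) for NIPBL, chrX:53422729-53422978 (-) for SMC1A, the first of its 2 annotated starts, chr3:136752379-136752628 (-) for STAG1 and chr13:32586202-32586451 (+) for PDS5B.
NIPBL: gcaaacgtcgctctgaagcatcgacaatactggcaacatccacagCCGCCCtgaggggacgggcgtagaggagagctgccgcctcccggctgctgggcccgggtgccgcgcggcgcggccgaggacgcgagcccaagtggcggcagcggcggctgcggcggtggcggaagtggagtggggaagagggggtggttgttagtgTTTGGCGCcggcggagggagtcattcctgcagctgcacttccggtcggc
SMC1A: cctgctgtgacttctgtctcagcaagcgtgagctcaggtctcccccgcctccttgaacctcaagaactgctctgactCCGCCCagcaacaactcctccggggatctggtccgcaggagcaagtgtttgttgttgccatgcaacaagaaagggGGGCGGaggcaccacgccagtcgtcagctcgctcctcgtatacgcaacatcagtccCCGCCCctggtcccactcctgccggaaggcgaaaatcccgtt
STAG1: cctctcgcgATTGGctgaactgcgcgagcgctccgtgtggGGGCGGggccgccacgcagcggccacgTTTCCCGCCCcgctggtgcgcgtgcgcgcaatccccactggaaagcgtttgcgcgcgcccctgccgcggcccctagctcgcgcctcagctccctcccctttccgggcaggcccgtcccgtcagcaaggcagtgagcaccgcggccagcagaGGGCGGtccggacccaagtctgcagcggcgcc
PDS5B: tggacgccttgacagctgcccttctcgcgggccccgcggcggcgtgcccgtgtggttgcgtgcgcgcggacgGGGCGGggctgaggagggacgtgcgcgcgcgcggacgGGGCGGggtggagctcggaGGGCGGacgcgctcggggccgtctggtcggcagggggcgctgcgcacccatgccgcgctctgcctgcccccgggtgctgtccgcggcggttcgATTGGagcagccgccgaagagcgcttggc

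The motif search used 300 bases, 250 before and 50 after each start, and found 10 starts of 7 cohesin genes in the table of 35116 promoters. RAD21, ESCO1 and ESCO2 were not matched. The windows of both SMC1A starts overlap and hold the same 3 GC boxes, and STAG2 gave 3 starts, so the 10 starts are not independent. A GC box was present at all 10 starts, against 45.0% of all promoters, and base composition ran from 56.0% to 76.0% G+C against a median of 58.7%. One of the E2F-like motifs stood at 4 of the 10 starts, 1 each for NIPBL, STAG1, SMC1A (its second start) and STAG2 (at 1 of its 3 starts), against 2.27% of all promoters. In the STAG1 sequence above, this match runs into a GC box. A CCAAT box was present at 5 starts of 4 genes (STAG1, PDS5B, PDS5A and STAG2), against 34.6% of all promoters, and TTTGAA at the starts of PDS5B and SMC3, against 15.2%. Of the called genes, NIPBL and SMC1A had neither CCAAT nor TTTGAA in these windows, while GC boxes and E2F-like motifs stood before both higher and lower genes. A match describes letters in a window only.

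The ring subunits did not move together. SMC1A (ENSG00000072501, chromosome X 53374149-53422728), an ATPase arm of the ring, stood at 169, 163 and 175 CPM in EV replicates 1 to 3 and at 202, 202 and 179 CPM in the HDAC8 replicates. All HDAC8 values were above all EV values, with HDAC8 replicate 3 close to the highest EV library. The means were 169 ± 6.18 and 195 ± 13.1 CPM (SD, n = 3 each), and the log2 fold change of 0.20 (SE 0.057, 95% interval 0.076 to 0.32) passed the test (adjusted p = 0.0248, edgeR). This call was lost when any single library other than HDAC8 replicate 3 was left out, with adjusted p of 0.0518 to 0.109, and when the replicate number entered the fit (replicate block, adjusted p = 0.0577, edgeR).

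SMC3 (ENSG00000108055, chromosome 10 110567684-110606048), the other ATPase arm and the substrate of ESCO1, ESCO2 and HDAC8, stood at 132, 139 and 135 CPM in EV and at 142, 148 and 109 CPM in HDAC8. The groups overlapped, since HDAC8 replicates 1 and 2 were above every EV library and replicate 3 was below every one. The log2 fold change was -0.022 (SE 0.093, 95% interval -0.22 to 0.18, adjusted p = 0.902, edgeR), and it was 0.095 (adjusted p = 0.178) without HDAC8 replicate 3. The genes whose log2 CPM over the 6 libraries was most like that of SMC3 were NDUFA12, RIOK3, KTN1, UQCRB and AL035541.1, with Pearson r of 0.997, 0.995, 0.994, 0.993 and 0.992. They were the top of 9776 genes of at least 10 CPM, of which 178 had an r above 0.9, and all share the low HDAC8 replicate 3.

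RAD21 (ENSG00000164754), the kleisin that closes the ring and is cut by separase at anaphase, stood at 366, 356 and 376 CPM in EV and at 345, 357 and 308 CPM in HDAC8. HDAC8 replicate 2 lay within the EV range and the other 2 HDAC8 libraries lay below it. Its log2 fold change was -0.12 (SE 0.056, 95% interval -0.24 to 0.0016, adjusted p = 0.154, edgeR). RAD21 shares 576 bases of exon with UTP23 on the opposite strand, whose counts were 7.08% of those of RAD21 and whose log2 fold change was -0.57. The labels name a strand-specific library kit, but the strand setting of the counting is not given in the sources used here, so reads of genes on opposite strands may have been shared.

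The STAG subunits, which bind RAD21 and help to place cohesin on chromatin, are alternatives in the ring. STAG1 (ENSG00000118007, chromosome 3 136336236-136752403) stood at 75.8, 74.2 and 73.5 CPM in EV and at 67.1, 62.5 and 58.2 CPM in HDAC8. Every HDAC8 library was below every EV library. The log2 fold change of STAG1 was -0.25 (SE 0.063, 95% interval -0.39 to -0.11, adjusted p = 0.0139, edgeR), and the call was lost without EV replicate 1 (adjusted p = 0.0637). STAG1 shares 1661 bases of exon with PCCB on the opposite strand, whose counts were 75.7% of those of STAG1, whose log2 fold change was 0.043, and whose reads could have been counted in part on STAG1.

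STAG2 (ENSG00000101972, chromosome X 123960212-124422664) stood at 127, 119 and 122 CPM in EV and at 142, 131 and 118 CPM in HDAC8. HDAC8 replicate 3 was the lowest of the 6 libraries and the other HDAC8 libraries were above the EV range. In the test the log2 fold change was 0.091 (SE 0.065, 95% interval -0.052 to 0.23, adjusted p = 0.370, edgeR). Neither direction passed the test, and the interval covers a rise of up to 0.23 on the log2 scale.

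NIPBL (ENSG00000164190, chromosome 5 36876769-37066413), the loader that also drives loop extrusion, had the lowest adjusted p of the 10 genes. It stood at 161, 182 and 167 CPM in EV and at 228, 233 and 209 CPM in HDAC8. The lowest HDAC8 library was well above the highest EV library. Means were 169.8 ± 10.8 and 223 ± 12.9 CPM (SD, n = 3 each), and the log2 fold change of 0.40 (SE 0.059, 95% interval 0.27 to 0.53, adjusted p = 0.000499, edgeR) passed the test in the main fit and under all 12 alternatives. MAU2, its partner in the loading complex, did not differ beyond its spread, at 46.2 ± 3.06 CPM (SD, n = 3) in EV and 46.4 ± 1.82 CPM (SD, n = 3) in HDAC8.

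The PDS5 proteins hold WAPL, the release factor, and sororin, its antagonist, on the ring. PDS5B (ENSG00000083642, chromosome 13 32586452-32778019) stood at 114, 120.4 and 111 CPM in EV and at 95, 87.8 and 80.5 CPM in HDAC8. All HDAC8 libraries were below all EV libraries. Its log2 fold change was -0.39 (SE 0.065, 95% interval -0.53 to -0.25, adjusted p = 0.00111, edgeR), and the call was kept under all 12 alternatives.

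PDS5A (ENSG00000121892, chromosome 4 39822863-39977956) stood at 197, 192 and 191 CPM in EV and at 221, 223 and 195 CPM in HDAC8. HDAC8 replicates 1 and 2 were above the EV range and replicate 3 was within it. The log2 fold change of 0.14 (SE 0.056, 95% interval 0.016 to 0.26) had an unadjusted p of 0.0301 and missed the adjusted threshold (0.103, edgeR). Without HDAC8 replicate 3 it was 0.19 with an adjusted p of 0.00427. WAPL itself stood at 99.5 ± 4.77 and 99.1 ± 9.46 CPM, and CDCA5, which encodes sororin, at 64.9 ± 2.37 and 61.5 ± 1.72 CPM (SD, n = 3 each), with adjusted p of 0.976 and 0.380 (edgeR).

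The SMC3 acetyltransferases are thought to act at different times, ESCO1 through the cell cycle and ESCO2 mainly in S phase. ESCO2 (ENSG00000171320) stood at 29.4, 32.5 and 29.7 CPM in EV and at 26.1, 24.6 and 18.8 CPM in HDAC8. The HDAC8 libraries were all below the EV libraries, with replicate 3 the lowest. The log2 fold change was -0.40 (SE 0.11, 95% interval -0.64 to -0.15, adjusted p = 0.0251, edgeR). Leaving out any single EV library ended the call, with adjusted p of 0.0608 to 0.10.

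ESCO1 (ENSG00000141446, chromosome 18 21529284-21600884) stood at 37.0, 44 and 37.8 CPM in EV and at 43.9, 47.3 and 41.4 CPM in HDAC8. EV replicate 2 lay among the HDAC8 values. In the test the log2 fold change was 0.16 (SE 0.082, 95% interval -0.023 to 0.34, adjusted p = 0.209, edgeR). In RNA, the acetylation cycle therefore showed a lower ESCO2 and no called difference in ESCO1 or SMC3. HDAC8 RNA was not called either, but the sources do not say whether RNA from the plasmid was counted on that gene. The paper probed HDAC8, acetylated SMC3 and total SMC3 protein by immunoblot in cells given either plasmid, and protein was not measured here.

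**Figure D2:**
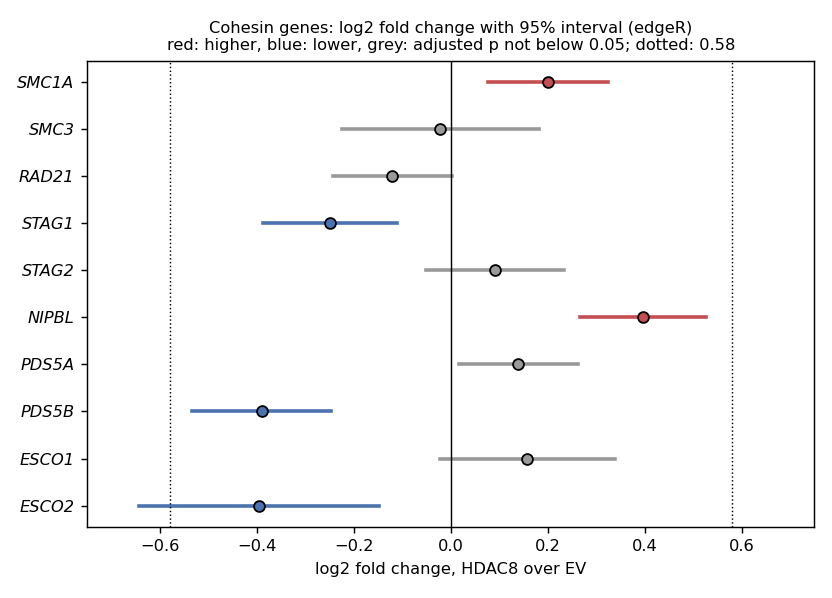
Log2 fold change of HDAC8 over EV (x axis) for each cohesin gene, with points for the edgeR estimate and lines for its 95% interval. Red marks the called higher genes NIPBL and SMC1A, blue the called lower genes PDS5B, ESCO2 and STAG1, grey the other 5, and no point reaches the dotted lines at an absolute value of 0.58.

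HDAC8 replicate 3 was the lowest of the HDAC8 libraries for 10 of the 10 cohesin genes. Of 9780 genes of at least 10 CPM, 41.9% were lowest in that library, against 33.2% in replicate 1 and 24.9% in replicate 2. Summed over the 10 genes, the EV libraries held 1407 to 1423 CPM, HDAC8 replicates 1 and 2 held 1513 and 1516 CPM, and replicate 3 held 1317 CPM. The total was thus above the EV range in 2 HDAC8 libraries and below it in the remaining one.

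Levels of different genes were compared as CPM per kilobase of the union of annotated exons. In EV the order of mean levels was RAD21 (25.5), PDS5A (15.8), SMC1A (15.6), NIPBL (13.6), STAG1 (9.50), PDS5B (8.73), SMC3 (8.72), STAG2 (7.66), ESCO1 (7.50) and ESCO2 (3.91). The library ranges of neighbours in that order overlapped for PDS5A and SMC1A, for PDS5B and SMC3, and for STAG2 and ESCO1. In HDAC8 the order was RAD21 (23.4), SMC1A (17.96), NIPBL (17.8), PDS5A (17.4), SMC3 (8.59), ESCO1 (8.36), STAG2 (8.16), STAG1 (7.98), PDS5B (6.66) and ESCO2 (2.97). There the ranges overlapped between neighbours from SMC1A to PDS5A and from SMC3 to STAG1. On this scale STAG1 and PDS5B were above STAG2 in every EV library, and PDS5B was below STAG2 in every HDAC8 library. The order also depended on the length used. Per kilobase of the longest transcript, RAD21 (44), PDS5A (27.1) and SMC3 (20.5) had the highest EV means. STAG1 (12.3), ESCO1 (8.30) and ESCO2 (8.03) had the lowest. STAG2 (17.8) was then above PDS5B (15.4) and STAG1, the reverse of their EV order per exon union. RAD21 was first and ESCO2 last on both scales.

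Ratios of partner genes within a library do not depend on library scaling, and all 5 that were compared were higher in every HDAC8 library than in every EV library. STAG2 over STAG1 was 1.67, 1.61 and 1.66 in EV and 2.11, 2.10 and 2.03 in HDAC8, a difference of 0.34 in mean log2 ratio. PDS5A over PDS5B was 1.73, 1.60 and 1.71 in EV and 2.32, 2.54 and 2.42 in HDAC8, a difference of 0.53. ESCO1 over ESCO2 was 1.26, 1.36 and 1.27 in EV and 1.68, 1.92 and 2.21 in HDAC8, a difference of 0.57. In each of these pairs the CPM ratio moved toward the partner that was not called, away from STAG1, PDS5B and ESCO2. All 5 ratios set a called gene against one not called, so their directions restate the single-gene values.

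For the other 2 ratios, SMC1A over SMC3 went from 1.25 to 1.47 and NIPBL over MAU2 from 3.67 to 4.81 (geometric means, n = 3 each), differences of 0.23 and 0.39 in mean log2 ratio. Each ratio had p = 0.1 in the two-sided exact permutation test, also after adjustment over the 5 ratios, which is the smallest p that 3 against 3 libraries allow, so none could pass 0.05. These are ratios of CPM and not of molecules, since the genes differ in length.

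**Figure D3:**
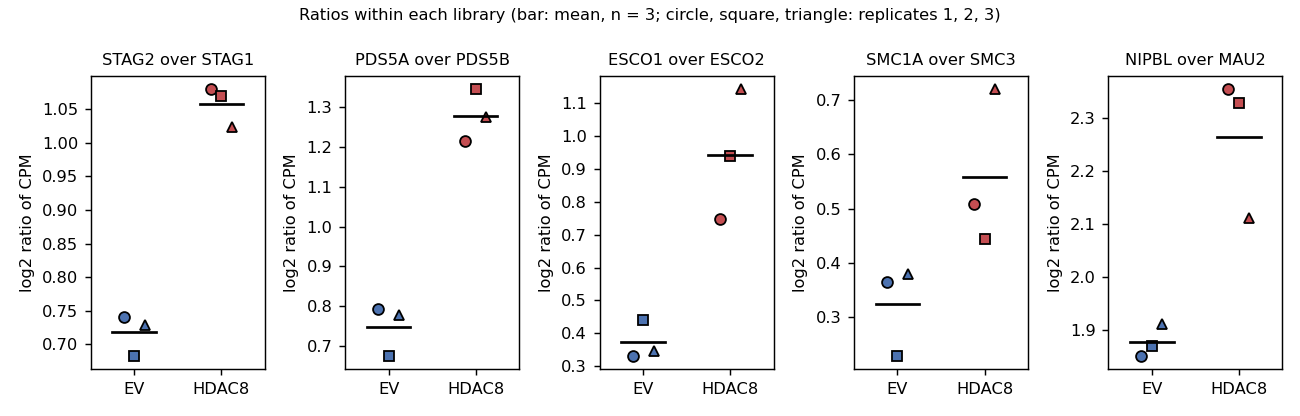
Log2 ratio of the CPM of partner genes within each library (y axis, a separate scale in each panel, not starting at 0), with bars for the mean of 3 libraries and circles, squares and triangles for replicates 1, 2 and 3. In all 5 panels the HDAC8 libraries lie above the EV libraries.

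The other genes of the pathway, a list of 15 regulators, held 3 that were higher and none that was lower in edgeR (5 higher and 0 lower with an unadjusted p under 0.05, and 5 and 0 with DESeq2). The 3 of 15 called are a share near the 22.7% of all genes tested. PLK1, the kinase that releases cohesin from chromosome arms, went from 114 ± 3.43 to 154 ± 3.23 CPM (log2 fold change 0.44, adjusted p = 4.47e-05). PTTG1, the securin that holds separase inactive, went from 81.2 ± 2.16 to 102 ± 2.31 CPM (0.33, adjusted p = 0.000691). ESPL1, separase itself, went from 244 ± 2.29 to 273 ± 12.9 CPM (0.17, adjusted p = 0.0245; SD, n = 3 each, edgeR). The DESeq2 calls added SGO2, a protector of centromeric cohesin, and PPP2R1A, a scaffold of its phosphatase partner, with edgeR adjusted p of 0.0745 and 0.0623. CTCF, which stops cohesin at loop anchors, had a log2 fold change of 0.052 (adjusted p = 0.663, edgeR), and the median over the list was 0.052.

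Of 9 cohesion factors, which act at the replication fork except for NAA50, 4 were lower, 1 was higher and 4 were not called. Over all genes tested, 11.7% were called lower and 11.1% higher. NAA50, an acetyltransferase needed for cohesion, went from 190 ± 6.43 to 141 ± 11.2 CPM (log2 fold change -0.44, adjusted p = 0.000261). DSCC1, a subunit of the alternative clamp loader that brings PCNA to forks, went from 37.8 ± 1.85 to 29.4 ± 3.42 CPM (-0.36, adjusted p = 0.0131). CLSPN and WDHD1, a checkpoint mediator and a fork scaffold, had log2 fold changes of -0.26 and -0.20 (adjusted p = 0.00819 and 0.0212, edgeR). The helicase gene DDX11 went the other way, from 115 ± 5.64 to 197 ± 7.57 CPM (0.77, adjusted p = 8.49e-07; SD, n = 3 each). DDX11 has near-identical copies in the genome. The counts of DDX11, PLK1, RAD21 and STAG1 had a fractional part in all 6 libraries, so that their levels are uncertain where reads were divided between genes. The same held for genes of the other lists, among them the called genes NCAPD2, UHRF1 and SOX10. CHTF18 and TIMELESS did not pass the test, with log2 fold changes of -0.067 and -0.0059, and the median over the 9 was -0.20.

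Genes of the related SMC complexes were counted in the same way. Of 8 condensin subunits, which compact mitotic chromosomes, 4 were higher (SMC2, NCAPD2, NCAPH and NCAPG2, with log2 fold changes of 0.20, 0.23, 0.20 and 0.30) and 1 was lower (NCAPH2, -0.18). Of 8 genes of the SMC5/6 complex, which acts in DNA repair, none was higher and 2 were lower (SLF2, -0.32, and NSMCE2, -0.37). Their medians were 0.14 and -0.051, and the difference between the complexes was not tested. The share called over all genes tested was 22.7%, near the 2 of 8 in SMC5/6. The meiotic paralogs were low. REC8 and STAG3 were tested and not called, at means of 1.35 and 2.75 CPM in EV and 1.88 and 2.82 CPM in HDAC8 (0 with an unadjusted p under 0.05 and 0 with DESeq2), while SMC1B and RAD21L1 had 0 to 6 counts per library.

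Genes of the cell cycle moved beside these groups, set against 11.7% called lower and 11.1% called higher over all genes tested. Of 12 S phase markers, 10 were lower and none was higher, with a median log2 fold change of -0.31. The sliding clamp PCNA went from 213 ± 5.94 to 146 ± 3.72 CPM (-0.54, adjusted p = 5.25e-06) and the replicative helicase subunit MCM2 from 208 ± 14.5 to 147 ± 0.787 CPM (-0.50, adjusted p = 5.09e-05). The other 8 called lower were RRM2, MCM4, MCM5, CDC6, UHRF1, MCM3, MCM6 and CDC45, with log2 fold changes of -0.46 to -0.20. Of 12 G2/M markers, 10 were higher and none was lower, with a median of 0.36, among them the mitotic kinesin KIF20A, from 85.4 ± 2.02 to 126 ± 1.54 CPM (0.56, adjusted p = 6.49e-06; SD, n = 3 each, edgeR). CCNB1, CCNB2, TOP2A, CENPE, CENPF, BUB1, TPX2, BUB1B and CDK1 were the other 9, from 0.18 to 0.55. Summed levels ran from 2217 to 2335 CPM in EV and 1759.8 to 1819 CPM in HDAC8 for the S phase list, and from 2710.4 to 2823 and 3135 to 3627 CPM for the G2/M list. In bulk RNA, fewer cells in a phase and less RNA per cell cannot be told apart.

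**Figure D4:**
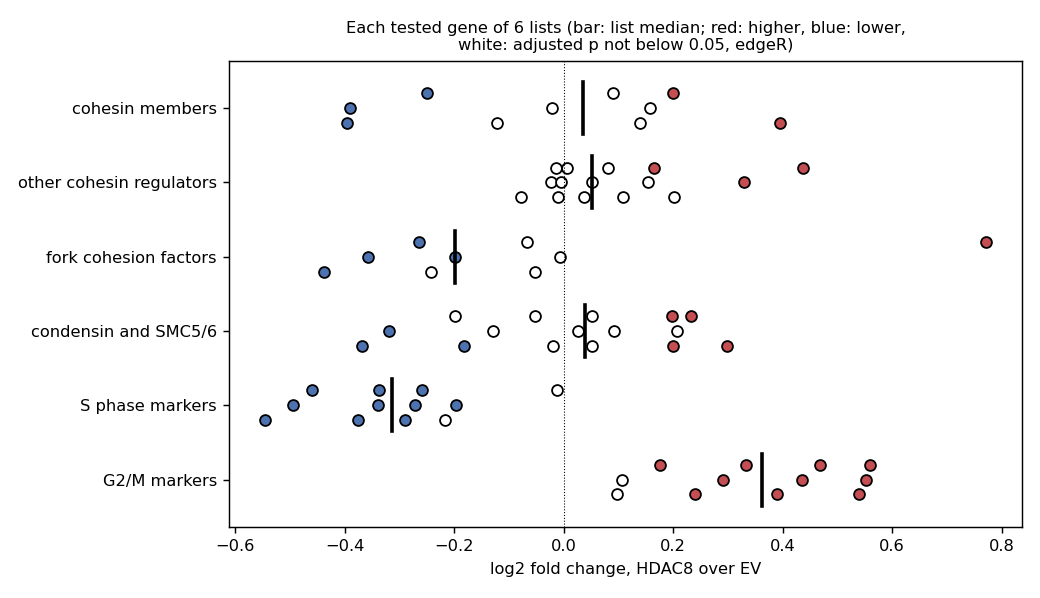
Log2 fold change of HDAC8 over EV (edgeR) for every tested gene of each list, 1 point per gene, with a bar for the list's median. Filled colours mark genes with an adjusted p below 0.05; the S phase list lies below 0 (median -0.31), the G2/M list above 0 (median 0.36), and the cohesin genes lie on both sides (median 0.035).

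Set against the summed S phase markers of the same library, a scale chosen after the values were seen, ESCO2 was at a log2 ratio of -6.23 ± 0.12 in EV and -6.29 ± 0.23 in HDAC8 (SD, n = 3 each), a difference of -0.064 with overlapping groups. The differences were -0.047 for PDS5B, 0.094 for STAG1, -0.018 for DSCC1, -0.094 for NAA50 and 0.080 for CLSPN, again with overlapping groups, and 0.15 for WDHD1, whose groups did not overlap. The S phase sum was itself lower in every HDAC8 library than in every EV library. Any gene lowered by a similar amount therefore comes out level on this scale. The overlap of the 3 lower cohesin genes cannot tell why they were lower. PDS5B and STAG1 are not S phase markers, and the part of the cell cycle in these differences was not tested.

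The genes around each cohesin gene were read as a description of its region, from the 10 tested genes of at least 10 CPM on each side. Over all genes tested, at any level, 11.1% were called higher and 11.7% lower. PDS5B lay among lower genes, with a median log2 fold change of -0.29 over its 20 neighbours, 13 of them called lower and 1 higher. Its own value was still below that of 17 of the 20. NIPBL lay among higher genes, with a median of 0.17, 11 called higher and 2 lower, and 15 of the 20 had a smaller value than NIPBL. With 25 genes on each side these medians were -0.23 and 0.15. ESCO2 stood apart from its region, since 19 of its 20 neighbours had a larger value and their median was -0.049. For STAG1, 17 of 20 neighbours had a larger value, around a median of -0.098, with 5 called lower and 2 higher. With 25 genes on each side of STAG1 the median was -0.14, with 15 of 50 called lower and 4 higher. SMC1A had a neighbour median of 0.11, with 4 called higher and 3 lower. With 25 genes on each side of SMC1A the median was 0.14, with 15 of 50 called higher and 4 lower. The other medians were -0.061 for SMC3, -0.15 for RAD21, 0.040 for STAG2, 0.10 for PDS5A and -0.086 for ESCO1. Around RAD21, 5 of the 20 neighbours were called lower and 0 higher, and the fork gene DSCC1 was among these neighbours. With 25 genes on each side of RAD21 the median was -0.20, with 20 of 50 called lower and 1 higher. ESCO1, which was not called, also stood apart, above 19 of its 20 neighbours. The fork helicase gene DDX11 had the median furthest from 0 of the regions compared, 0.85, with 14 of 20 neighbours called higher. The part of the region in the values of PDS5B, NIPBL, SMC1A, STAG1, RAD21, DSCC1 and DDX11 was not tested, and copy number was not measured.

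**Figure D5:**
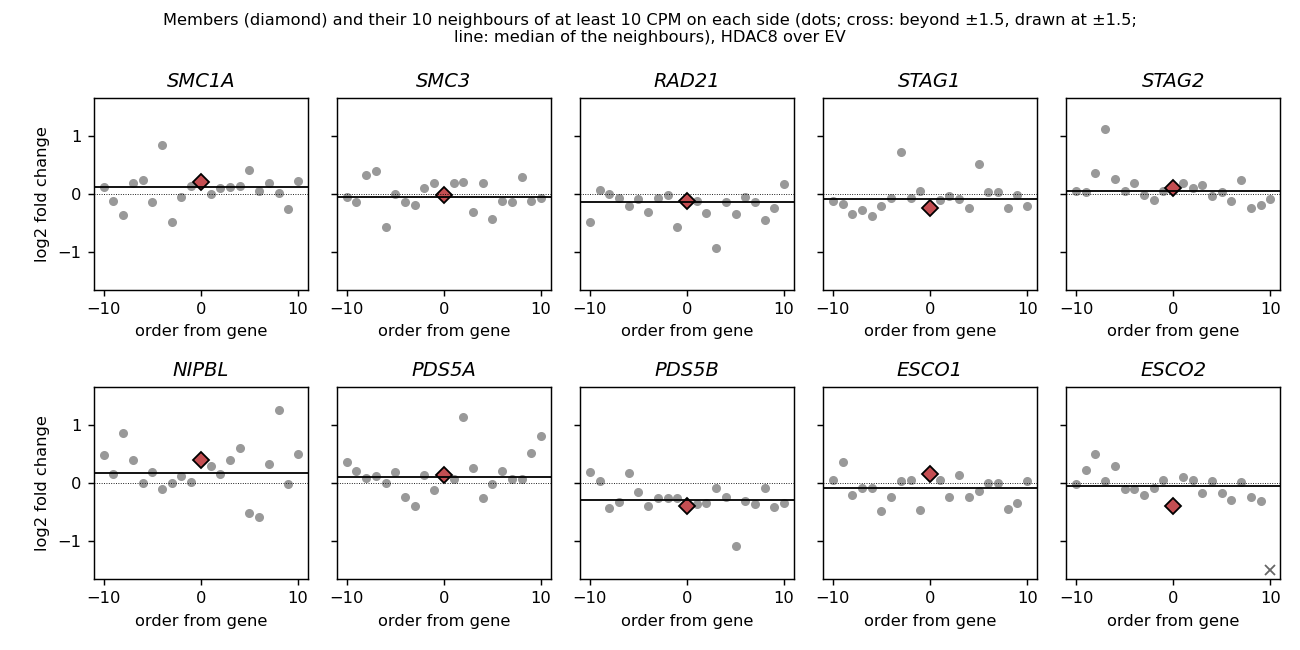
Log2 fold change of HDAC8 over EV (y axis) of each cohesin gene (large marker) and of its 10 tested neighbours on each side (small points, with a bar at their median); a cross marks 1 neighbour of ESCO2 at -2.15, outside the axis. PDS5B lies among neighbours with a median of -0.29 and NIPBL among neighbours with a median of 0.17. ESCO2 lies below 19 of its 20 neighbours, ESCO1 above 19 of 20 and PDS5B below 17 of 20.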

How the data were processed

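RNA-seq of SK-MEL-28 cells was analysed in 3 libraries labelled EV and 3 labelled HDAC8, and groups were taken from the sample labels. Values are as the authors deposited them, unnormalized estimated counts for each Ensembl gene, made with Trimmomatic, STAR and RSEM, per the submitters' processing notes on GRCh38; the annotation is not given in the sources used here. RSEM divides reads that match several genes, so 5351 to 5685 of 60504 values in each library had a fractional part, and every value was rounded. RNA kits differ between the labels (Aurum, ribosomal RNA depletion, directional libraries) and the Methods. A second deposited table holds a log2 fold change, a p-value and 2 columns of group values from the authors' own comparison, and was not used.

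Counts of 16195 genes that passed filterByExpr were tested in R 4.3.3 with edgeR 4.0.16 (TMM, glmQLFit, glmQLFTest, no block), with Benjamini-Hochberg adjustment over all genes tested. A gene was called at an adjusted p below 0.05, and the Methods' log2 fold change of 0.58 was applied as a further threshold. Intervals are 95% intervals from the moderated t distribution. Positions and lengths are from GENCODE 44, matched by Ensembl identifier, and promoters are from RefSeq. The genes named by rule were the 10 cohesin genes, HDAC8, MITF, every called gene of the other lists or else a list's 2 most abundant genes, and the 5 genes most like SMC3. MITF went from 947 ± 18.8 to 859 ± 28.3 CPM (SD, n = 3 each, log2 fold change -0.14, adjusted p = 0.0263, edgeR). MAU2, WAPL, CDCA5, SGO2, PPP2R1A, CTCF, CHTF18, TIMELESS and the overlapping genes were named outside it, after their values were seen. The members and lists were chosen with earlier results of these data known. Alternatives were DESeq2 1.42.0, other scalings and filters, a replicate block, and each library left out. The scripts were tested on simulated counts.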

Additional observations from a re-analysis of the deposited data

How the results depend on the processing

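NIPBL and PDS5B kept their direction and call under all 12 alternatives to the main fit (DESeq2, upper-quartile and RLE scaling, 2 other filters on low counts, the replicate block and each of 6 libraries left out), STAG1 kept its call in 11, ESCO2 in 9 and SMC1A in 6, and PDS5A gained one in 1. The only sign that turned was that of SMC3, with log2 fold changes of -0.11 to 0.095 when single libraries were left out and 0.095 without HDAC8 replicate 3. The count of higher cohesin genes fell from 2 to 1 with the replicate block, which ended the call of SMC1A, and was 1 to 3 when single libraries were left out, with 3 without HDAC8 replicate 3, where PDS5A was added. The count of lower cohesin genes was 1 to 3 in the same runs, with 1, PDS5B, remaining without EV replicate 1. DESeq2 called 5 of the other cohesin regulators against 3 in edgeR. With single libraries left out, the calls were 3 to 5 for the fork factors against 5 (3 without EV replicate 1 or 2) and 3 to 6 for condensin and SMC5/6 against 7 (3 without EV replicate 3 or HDAC8 replicate 2, and 4 without EV replicate 1 or 2). Levels per length moved for all 10 genes with the longest transcript. Of the values that answer a comparison, 123 under an alternative kept their direction and stayed within their limits and 14 did not. Of the other values 128 did. Among the rest of these, 10 moved (the levels per length), 10 lost a call, 1 gained a call (PDS5A) and 1 turned sign (SMC3). Same-numbered libraries did not deviate together (correlations of -0.107 to -0.042). These deviations are from means of 3 libraries, so they gave no sign of pairing but cannot show that same-numbered libraries were prepared apart. Within-number differences of the 5 ratios gave p = 0.25 in the exact permutation test, the smallest that 3 pairs allow. Depth did not limit the cohesin genes, the lowest of which, ESCO2, stood far above the floor of 3 counts, whereas SMC1B and RAD21L1 were near it.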
